A study of Mus musculus with 9 samples.

Results

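Enteroendocrine cells are scattered hormone-secreting cells of the gut epithelium, and the genes described here are 10 of their hormone, granule and lineage genes: *Chga*, *Chgb*, *Cck*, *Gcg*, *Pyy*, *Sst*, *Tph1*, *Insl5*, *Nts* and *Neurod1*. They were taken by symbol from a table of 38087 mouse genes, and each was found once. The table came from RNA-seq of the medial colon of male C57BL/6 mice, aged 10 to 12 weeks, that were given dextran sulfate sodium (DSS) in their drinking water. DSS injures the colonic epithelium and produces a colitis, and it was given to all 3 groups, so there was no group without it. On the background of this colitis, mice were injected intravenously with human adipose tissue-derived mesenchymal stem cells (AD-MSC group), human umbilical cord tissue-derived mesenchymal stem cells (UC-MSC group) or phosphate-buffered saline (control group). Colons were taken 1 day after injection, from 3 mice per group, giving 9 libraries. The injected cells were thus of another species than the host, and C57BL/6 is an inbred strain with an intact immune system. Gene positions are on build GRCm38/mm10.

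The table gives 1 mean per gene and group, not the value of each mouse. Therefore no spread between mice, no standard deviation and no test could be had for any gene, and every difference below compares 2 group means with no replicate check. Levels are the authors' log2 group means of normalized reads, printed here as normalized reads or, where genes are set against each other, as normalized reads per kb of exon. Differences are log2 differences of these means. The interval in brackets after a difference is a 95% counting interval from the number of reads alone; it covers counting error only and is the smallest error the difference can have. A gene was compared where the mean of both groups reached 10 normalized reads, which removed *Nts* from all comparisons and *Cck* from that of AD-MSC with control. A gene under 10 reads in 1 group of a pair could pass only through the higher mean of the other group. The 3 comparisons share their groups, so that one group's mean enters several of them. Because whole tissue was sequenced, fewer cells of a type and less RNA per cell cannot be told apart.

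Each enteroendocrine cell stores peptide hormones or serotonin in dense granules and releases them when nutrients, microbial products or nerves act on its receptors. In the colon, L cells make the proglucagon peptides, peptide YY and insulin-like peptide 5, enterochromaffin cells make serotonin, and D cells make somatostatin. The granins, which chromogranin A and B belong to, pack the granules, and the basic helix-loop-helix factor NeuroD1 acts in the lineage that gives rise to the cells.

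The hormone genes differ in the DNA just before their start sites, and the 4 sequences shown are those of the hormones whose group means stood furthest apart or moved against each other. They are the 250 bases before the RefSeq start in build GRCm38.p6, written 5′ to 3′ on the gene's own strand, all on the minus strand. Capitals mark CAGATG, an E-box of the kind NeuroD1 binds. They also mark TGACG, the core of the element through which cyclic AMP acts. In the same way they mark the TATA box, searched as TATAAA. Each motif was searched on both strands, so that capitals can also be the reverse complement. The RefSeq start of *Insl5* lies 114 bases inside the gene position given below, so part of its window overlaps the gene. Those of *Chgb* and *Neurod1* lie 364 and 115 bases inside.
*Insl5*, chr4:103026729-103026978: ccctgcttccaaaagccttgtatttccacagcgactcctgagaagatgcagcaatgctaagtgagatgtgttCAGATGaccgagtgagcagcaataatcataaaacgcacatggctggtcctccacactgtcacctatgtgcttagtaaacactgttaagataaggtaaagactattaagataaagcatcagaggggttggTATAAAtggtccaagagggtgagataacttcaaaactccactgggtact
*Pyy*, chr11:102107833-102108082: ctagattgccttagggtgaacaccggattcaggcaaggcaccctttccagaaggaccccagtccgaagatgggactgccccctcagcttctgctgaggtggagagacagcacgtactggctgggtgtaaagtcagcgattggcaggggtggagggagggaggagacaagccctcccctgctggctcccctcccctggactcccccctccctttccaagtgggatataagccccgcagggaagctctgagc
*Gcg*, chr2:62483654-62483903: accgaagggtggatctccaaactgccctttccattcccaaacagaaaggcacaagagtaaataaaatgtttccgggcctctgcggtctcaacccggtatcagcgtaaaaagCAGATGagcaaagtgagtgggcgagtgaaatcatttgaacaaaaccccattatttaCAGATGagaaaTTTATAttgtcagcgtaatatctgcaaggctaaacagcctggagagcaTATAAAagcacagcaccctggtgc
*Cck*, chr9:121495695-121495944: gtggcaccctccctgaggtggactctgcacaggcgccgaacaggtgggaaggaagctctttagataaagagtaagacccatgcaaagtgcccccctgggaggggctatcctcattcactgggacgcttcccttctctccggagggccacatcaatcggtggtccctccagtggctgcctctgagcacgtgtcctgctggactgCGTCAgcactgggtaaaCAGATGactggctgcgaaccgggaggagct
The E-box letters were present in 3 of the 10 promoters (*Insl5* at -178, *Cck* at -30, *Gcg* 2 times with the nearer at -83, counted from the start site), against 14.4% of 32851 mouse promoters of the same length. The TGACG core was present in 6 of 10 against 17.8%, and the full element TGACGTCA, which contains the core on both strands, in *Chgb* and *Sst* against 1.55%. The TATA box letters were found in *Insl5* and *Gcg*, against 12.4% of all promoters. The *Pyy* window held none of these letters. A match is a string of letters and not a measured site.

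All 10 genes had reads in every group, and their levels per kb covered a wide range. In control colon the order was *Pyy* (978 normalized reads per kb), *Chgb* (947), *Insl5* (642), *Gcg* (314), *Chga* (312), *Sst* (137), *Tph1* (17.3), *Neurod1* (7.40), *Cck* (3.20) and *Nts* (1.58). *Gcg* and *Chga* were neighbours at almost the same level. *Chgb* stood first in both treated groups, with 1014 reads per kb after AD-MSC and 1427 after UC-MSC. *Insl5* stood in the third place in control, in the fourth after AD-MSC (348) and in the fifth after UC-MSC (365). As a share of the reads per kb of the 10 genes together, *Insl5* made up 19.1% in control, 12.5% after AD-MSC and 10.3% after UC-MSC, whereas *Chgb* made up 28.2%, 36.5% and 40.2%. The epithelial marker *Epcam* was at 10305, 10885 and 11004 normalized reads in the same order. The 18 listed epithelial markers summed to 117610, 112615 and 121972 normalized reads, so epithelial RNA was present in each group. Single markers were split, with 9 higher and 9 lower than control after AD-MSC, and 10 higher and 8 lower after UC-MSC.

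**Figure D1:**
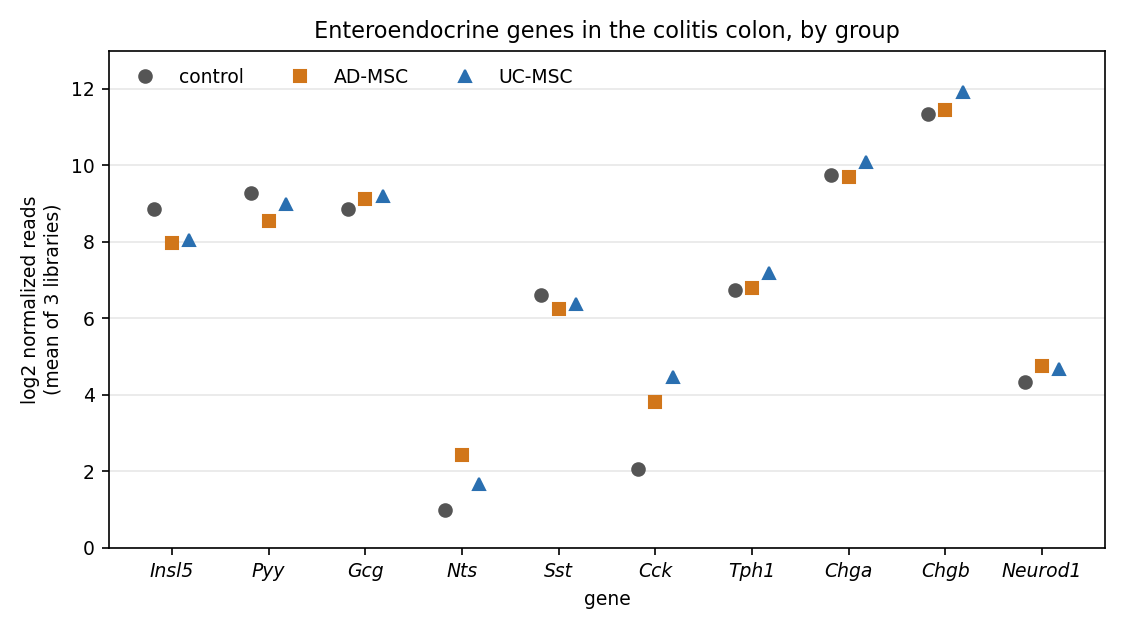
Levels of the 10 genes in the control, AD-MSC and UC-MSC groups, as the authors' group means of 3 libraries in normalized reads on a log axis; there are no error bars because single libraries were not given. *Insl5* and *Pyy* are highest in control, *Chgb* is highest after UC-MSC, and *Cck* and *Nts* lie near the bottom of the scale.

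After AD-MSC injection, *Insl5* and *Pyy* were the lowest of the compared hormone genes relative to control and *Gcg* was slightly higher. *Insl5* was 1.84-fold lower, *Pyy* 1.65-fold lower and *Gcg* 1.19-fold higher, whereas *Chga* and *Tph1* were nearly level with control. Of the 8 genes compared, 0 were at least 2-fold higher (1.69% of all 14960 compared genes were) and 0 were at least 2-fold lower (2.01% of all). Their median difference was 0.00 (-0.03 with libraries scaled to equal totals), with 4 higher and 4 lower. Over all compared genes the median was -0.01, and 48.9% were higher. Counting intervals lay above 0 for 2 of the 8 genes and below 0 for 3, but such intervals were common, lying above 0 for 26.3% and below 0 for 28.5% of all compared genes that had one.

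After UC-MSC injection, 6 of 9 compared genes were higher than control and 3 were lower, whereas 48.3% of all compared genes were higher. *Cck* was 5.29-fold higher from low counts, *Chgb* was 1.51-fold higher, and *Insl5* was again lower, by 1.76-fold. *Cck* was the 1 gene at least 2-fold higher, against 5.09% of all 15026 compared genes, and 0 were at least 2-fold lower, against 2.66%. With a control mean under 10 reads, *Cck* passed the filter only through its higher UC-MSC mean. The median difference of the 9 genes was 0.33, and that of all compared genes was -0.02. Counting intervals lay above 0 for 5 of the 9 genes (29.6% of all) and below 0 for 2 (30.5% of all).

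**Figure D2:**
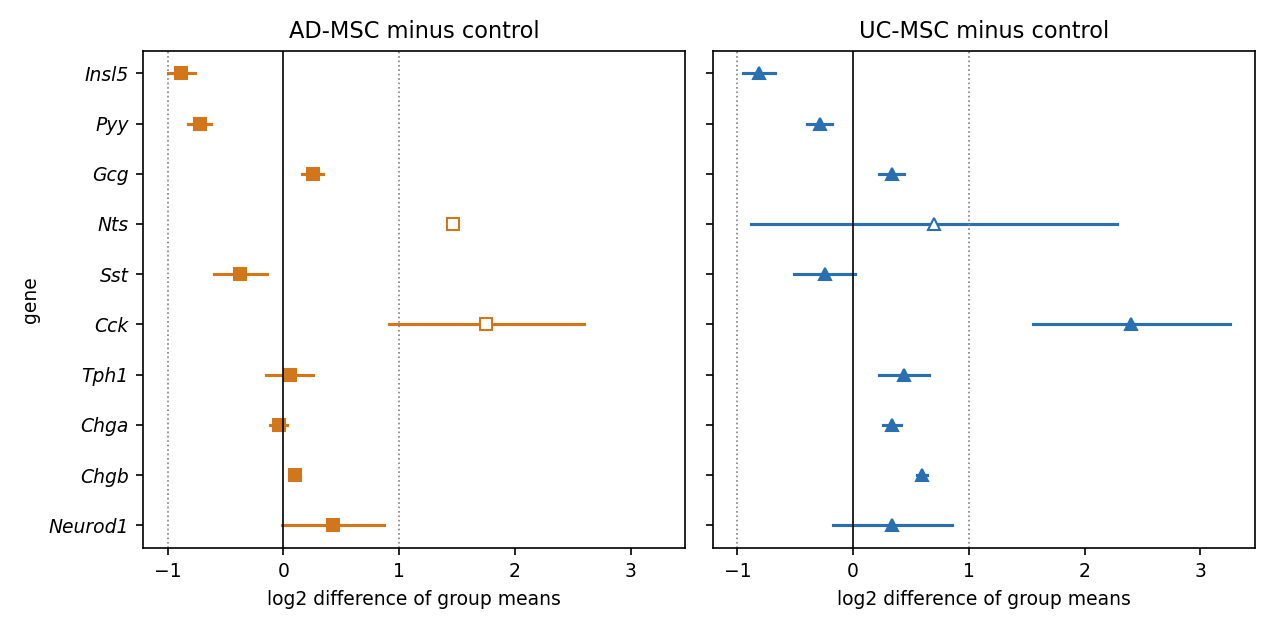
Log2 differences of group means for each gene, with 1 panel for each treated group against control. Bars give the 95% counting interval, which leaves out the spread between mice. Open symbols are genes that were not compared, and a gene without a bar had a library with no reads. *Insl5* lies at -0.88 after AD-MSC and -0.81 after UC-MSC, and *Gcg* lies at 0.25 and 0.33.

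*Insl5* encodes insulin-like peptide 5, a hormone of colonic L cells that acts through the receptor RXFP4. The gene lies on the minus strand at chr4:103017872-103026842. Its group means were 465 normalized reads in control, 252 after AD-MSC and 264 after UC-MSC, from raw means of 530, 317 and 189 reads. Both treated groups were lower than control and close to each other. The difference from control was -0.88 [-1.0, -0.77] after AD-MSC, and 2.62% of all compared genes were as low or lower. After UC-MSC it was -0.81 [-0.95, -0.68], which 4.57% of compared genes reached. The UC-MSC and AD-MSC means differed by 0.07 [-0.08, 0.22], an interval that includes 0. The receptor gene *Rxfp4* was near the floor, at 1.20, 2.46 and 2.67 normalized reads, and was not compared.

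*Pyy* encodes peptide YY, which slows gut transit and reduces appetite. It lies on the minus strand at chr11:102106676-102107832. It had 617 normalized reads in control, 374 after AD-MSC and 505 after UC-MSC. The AD-MSC mean was the lowest and the UC-MSC mean lay between it and control. The difference from control was -0.72 [-0.82, -0.63] after AD-MSC, with 4.18% of compared genes as low, and -0.29 [-0.40, -0.18] after UC-MSC, with 25.1% as low. *Pyy* was higher after UC-MSC than after AD-MSC by 0.43 [0.32, 0.55]. The related gene *Ppy*, which encodes pancreatic polypeptide and lies 5356 bases from *Pyy*, was at 52.7, 38.2 and 37.9 normalized reads, a difference from control of -0.46 [-0.78, -0.15] after AD-MSC and -0.47 [-0.85, -0.10] after UC-MSC.

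*Gcg* encodes proglucagon, from which L cells cut glucagon-like peptides that stimulate insulin secretion and epithelial growth. It lies on the minus strand at chr2:62474530-62483650. Its means were 469 normalized reads in control, 558 after AD-MSC and 591 after UC-MSC. Unlike *Insl5* and *Pyy*, it was higher in both treated groups. The difference was 0.25 [0.16, 0.34] after AD-MSC and 0.33 [0.23, 0.44] after UC-MSC. Such differences were common, since 21.6% and 24.2% of compared genes were as high. The treated groups differed from each other by 0.08 [-0.02, 0.18].

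The proportions among the L-cell hormones therefore differed between control and treated groups. The ratio of *Gcg* to *Insl5* per kb was 0.489 in control, 1.07 after AD-MSC and 1.08 after UC-MSC. Per kb, *Gcg* thus stood below *Insl5* in control and slightly above it in both treated groups. That order rests on the exon lengths used, since control levels were 469 normalized reads for *Gcg* and 465 for *Insl5*. The shift of the ratio, which exon length does not change, was 1.13 [0.98, 1.28] on the log2 scale for AD-MSC and 1.15 [0.97, 1.32] for UC-MSC. These ratios do not depend on how the libraries were scaled, because both genes come from the same libraries. The ratio of *Gcg* to *Pyy* per kb was 0.321, 0.631 and 0.494. It shifted by 0.97 [0.84, 1.11] after AD-MSC and by 0.62 [0.47, 0.77] after UC-MSC. The ratio of *Pyy* to *Insl5*, at 1.52, 1.70 and 2.19, shifted by 0.16 [0.01, 0.31] and 0.52 [0.35, 0.70].

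*Insl5* is known in mice as a hormone of the distal colon, and the table holds *Hox* genes that mark position along the gut. *Hoxb13*, a gene of the most distal gut, was at 1414 normalized reads in control, 739 after AD-MSC and 832 after UC-MSC. It was lower in both treated groups, with differences of -0.94 [-1.0, -0.87] and -0.77 [-0.84, -0.69]. Of 15 genes on the list of colon position, 12 were compared, with 5 higher and 7 lower after AD-MSC (median -0.03) and 7 higher and 5 lower after UC-MSC (median 0.33). *Hoxd10*, *Hoxd13* and *Hoxd11* were at least 2-fold lower after AD-MSC, and *Hoxb7* was more than 2-fold higher after UC-MSC. *Hoxd13* was at 91.0, 26.5 and 174 normalized reads, so that after UC-MSC it was higher than control, unlike *Hoxb13*. None of the listed genes was at 0 in any group. Whether the place of sampling had a part in the *Insl5* and *Pyy* differences was not tested.

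*Nts* encodes neurotensin, a peptide of enteroendocrine cells and of nerves. It lies on the minus strand at chr10:102481760-102490418. It was at 1.97 normalized reads in control, 5.43 after AD-MSC and 3.20 after UC-MSC, too low to compare. As worked out from the group means, only 2 of the 3 AD-MSC libraries had reads. The raw mean over libraries with reads was 18.8 after AD-MSC, against 2.0 in control and 2.29 after UC-MSC. The higher AD-MSC value therefore came from libraries that differed among themselves. The neurotensin receptor *Sort1*, a sorting protein found in many cells, was at 3212, 3871 and 3179 normalized reads.

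*Sst* encodes somatostatin, the inhibitory peptide of D cells and of some enteric neurons. It lies on the minus strand at chr16:23889581-23890844. It was at 98.6 normalized reads in control, 76.1 after AD-MSC and 83.2 after UC-MSC. Control was the highest of the 3. The difference was -0.37 [-0.60, -0.15] after AD-MSC and -0.25 [-0.51, 0.02] after UC-MSC, the latter with an interval that includes 0. The somatostatin receptor *Sstr3* was at 7.15, 5.49 and 16.9 normalized reads, a difference from control of 1.24 after UC-MSC. It passed the filter only through its UC-MSC mean.

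*Cck* encodes cholecystokinin, a satiety peptide of I cells in the upper gut that is also made in neurons. It lies on the minus strand at chr9:121489825-121495689. It was at 4.17 normalized reads in control, 14.1 after AD-MSC and 22.1 after UC-MSC, with raw means of 4.76, 17.7 and 15.8 reads. By the group means all 9 libraries had reads, and both treated means were above the control mean. The difference from control after UC-MSC was 2.40 [1.55, 3.26]. After AD-MSC it was 1.75 [0.91, 2.60], from a pair of groups with a mean under 10 reads. The control mean was under 10 reads, so *Cck* was compared after UC-MSC only through its higher UC-MSC mean. It is therefore not ranked among all genes. Adding a pseudocount of 10 reads brought these differences to 1.18 and 0.76. The cholecystokinin receptor gene *Cckar* was at 6.69, 11.1 and 27.9 normalized reads, a difference of 2.06 [1.37, 2.75] after UC-MSC. Like *Cck*, it was compared there only through its higher UC-MSC mean.

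*Tph1* encodes the enzyme that limits serotonin synthesis in enterochromaffin cells. It lies on the minus strand at chr7:46647130-46672537. It was at 107 normalized reads in control, 111 after AD-MSC and 145 after UC-MSC. The UC-MSC group was the highest, and the AD-MSC group was level with control within counting error. The difference was 0.05 [-0.15, 0.25] after AD-MSC and 0.44 [0.22, 0.66] after UC-MSC, with 19.7% of compared genes as high as the latter. *Ddc*, the next enzyme of serotonin synthesis, was lower instead, at 246, 200 and 168 normalized reads, a difference of -0.55 [-0.73, -0.38] after UC-MSC.

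*Chga* and *Chgb* encode chromogranins A and B, the acidic proteins of the granule core. *Chga* lies on the plus strand at chr12:102554969-102565027 and *Chgb* on the plus strand at chr2:132781278-132795079. *Chga* was at 861 normalized reads in control, 836 after AD-MSC and 1086 after UC-MSC. *Chgb* was at 2594, 2778 and 3910. Both were highest after UC-MSC and near control after AD-MSC. The *Chga* difference was -0.04 [-0.11, 0.03] after AD-MSC and 0.33 [0.26, 0.41] after UC-MSC. The *Chgb* difference was 0.10 [0.06, 0.14] after AD-MSC and 0.59 [0.55, 0.64] after UC-MSC. The ratio between the granins also differed, since that of *Chgb* to *Chga* per kb was 3.03 in control, 3.34 after AD-MSC and 3.62 after UC-MSC, a shift of 0.26 [0.17, 0.35] for UC-MSC.

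Granins, somatostatin and cholecystokinin are also made by neurons, so the neuronal markers are given beside them. Of 19 listed markers of enteric neurons, 17 were compared, and 16 were higher after UC-MSC with a median of 0.54. After AD-MSC 13 of 17 were higher, with a median of 0.13. Their summed level was 1701 normalized reads in control, 1773 after AD-MSC and 2763 after UC-MSC. *Hand2*, a factor of enteric neurons, was at 249, 291 and 552. None of the neuronal markers was at 0 in control or after AD-MSC, and 1 was at 0 after UC-MSC. Their part in the higher *Chgb*, *Chga* and *Cck* levels was not tested.

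*Neurod1* encodes the transcription factor named above and lies on the minus strand at chr2:79452521-79456751. It was at 20.2 normalized reads in control, 27.1 after AD-MSC and 25.5 after UC-MSC. The treated means were higher, but the counting intervals included 0, at 0.42 [-0.02, 0.86] and 0.34 [-0.17, 0.85]. It was the 1 gene of the 10 that overlaps other genes of the table, among them *Cerkl* on the same strand (log2 levels of 3.87, 3.75 and 4.22), and reads from a shared stretch cannot be told apart.

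**Figure D3:**
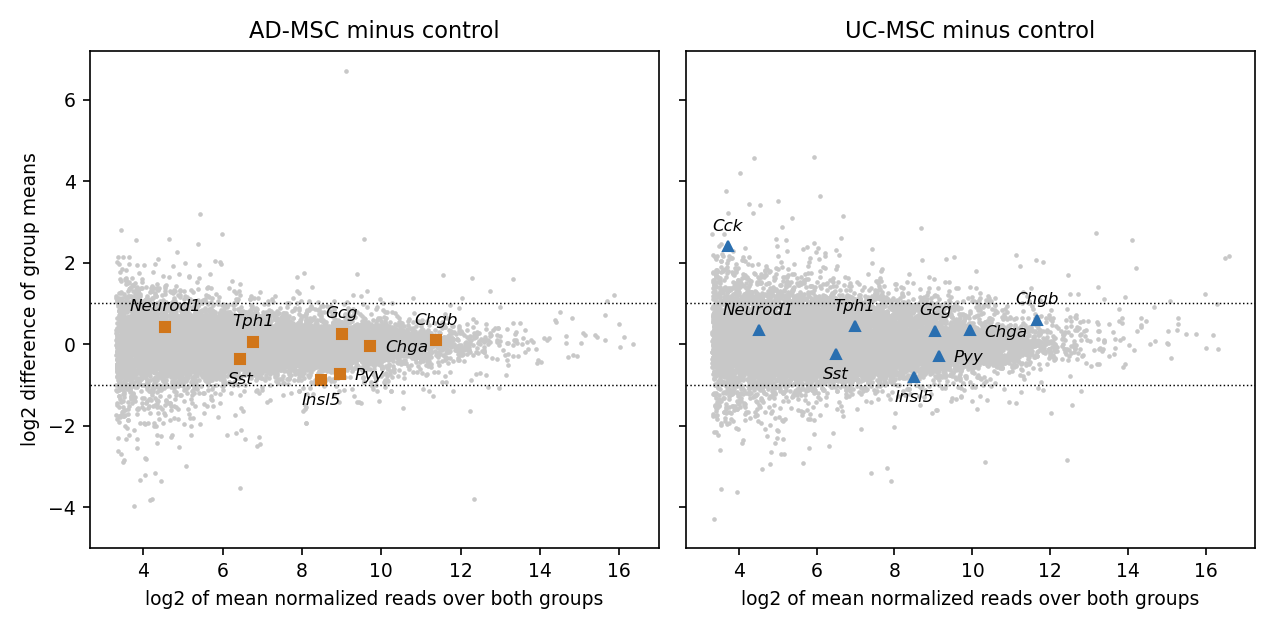
Log2 difference of each compared gene against the log2 of its mean normalized reads over both groups, with 1 panel for each treated group against control. Each grey point is a gene, the dotted lines mark 2-fold and the coloured symbols are the hormone and granule genes. *Cck* lies at 2.40 beyond the line after UC-MSC, among genes of low level, and *Insl5* lies nearest the lower line in both panels.

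The treated groups were also set against each other. UC-MSC means were higher than AD-MSC means for 8 of 9 compared genes, against 48.8% of all 15074 compared genes. The median difference was 0.38, beside -0.01 over all compared genes. None of the 9 reached 2-fold in either direction, against 4.50% of all compared genes higher and 2.30% lower. Counting intervals lay above 0 for 5 genes, which were *Pyy*, *Chga*, *Chgb*, *Cck* and *Tph1* (27.6% of all), and below 0 for none (26.8% of all). The difference was 0.49 [0.45, 0.53] for *Chgb*, 0.38 [0.30, 0.45] for *Chga* and 0.39 [0.18, 0.60] for *Tph1*. That of *Cck* was 0.65 [0.09, 1.22]. Those of *Sst* and *Neurod1* were 0.13 [-0.14, 0.40] and -0.08 [-0.56, 0.39]. With libraries scaled to equal totals, the small UC-MSC minus AD-MSC differences of *Gcg* and *Insl5* took the opposite sign, at -0.02 and -0.03.

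The other gut hormones were few above the filter, and they were neither all higher nor all lower. Of 11 listed, 5 were compared. After AD-MSC 2 were higher and 3 lower (median -0.46), and after UC-MSC 4 were higher and 1 lower (median 0.58). *Tac1*, which encodes substance P and neurokinin A, was at 293 normalized reads in control, 127 after AD-MSC and 436 after UC-MSC, a difference of -1.20 [-1.36, -1.04] and 0.58 [0.45, 0.70]. *Nmu*, which encodes neuromedin U, was at 19.4, 5.31 and 19.4, with a difference after AD-MSC of -1.87 [-2.59, -1.15]. It passed the filter there only through its control mean. *Gal* and *Penk*, the galanin and enkephalin precursors, were higher after UC-MSC by 1.20 [0.82, 1.57] and 1.13 [0.98, 1.28]. These peptides are also made by enteric neurons, whose markers are given above. Several genes named here and below overlap a gene on the opposite strand, *Slc18a1* (with *Atp6v1b2*, log2 level 8.97 in control), *Glp2r* (with *Gas7*, 8.29), *Neurog3* (with *2010107G23Rik*, 5.27), *Sox4* and *Gfap* (with genes at 4.26 and 4.45) and, with partners below 3 in every group, *Cel*, *Ddc*, *Dpp4*, *Iapp*, *Nmu*, *Pcsk2*, *Penk*, *Slc6a4* and *Sort1*. Without strand, the reads of such pairs cannot be told apart. *Hoxb7*, *Hoxd10* and *Hoxd11* overlap a gene on the same strand. *Gip* was near the floor and *Gast* was listed at 0 in every group, hormones of the upper gut.

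Genes that process prohormones and release granules were higher more often than lower, with a larger median after UC-MSC. Of 28 listed genes, 17 were higher and 11 lower after AD-MSC (median 0.15), and 23 of 27 compared were higher after UC-MSC (median 0.42). *Vgf*, which encodes a secreted granule protein, was at 7.99 normalized reads in control, 21.0 after AD-MSC and 26.5 after UC-MSC, a difference of 1.40 [0.77, 2.02] and 1.73 [1.07, 2.39]. *Cplx1*, a complexin that acts in vesicle fusion, was at 4.11, 24.0 and 14.2, higher after AD-MSC by 2.55 [1.74, 3.36]. *Vgf* and *Cplx1* were under 10 reads in control and passed the filter only through the higher treated means. The prohormone convertase gene *Pcsk1* was nearly level, at 46.0, 43.2 and 58.2, as was *Pcsk2* at 36.2, 32.0 and 31.9. *Scg3*, another granin-like gene of the granule, differed by 0.57 after AD-MSC and 0.95 after UC-MSC. Several of these genes are used by neurons as well.

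Transcription factors of the enteroendocrine lineage had small median differences from control, with single genes further away in either direction. Of 20 listed, 14 were compared, with 10 higher and 4 lower in each comparison with control and a median of 0.18 in both. *Sox4*, a factor of endocrine progenitors, was at 71.3, 123 and 143 normalized reads, a difference of 1.01 [0.77, 1.25] after UC-MSC. *Insm1*, which acts in endocrine differentiation, differed from control by -0.95 [-1.56, -0.35] after AD-MSC and by -0.05 after UC-MSC. Its AD-MSC mean was under 10 reads, so it passed the filter there only through its control mean. *Isl1*, a factor of endocrine cells and of neurons, was at 19.8, 12.4 and 35, which made it 1.5 higher after UC-MSC than after AD-MSC. *Neurog3*, which starts the lineage, was at 10.0, 6.97 and 7.58 normalized reads and was not compared.

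Among receptors through which nutrients, microbes and nerves act on enteroendocrine cells, *Adra2a* had the largest differences from control of the compared genes. *Adra2a*, the alpha-2A adrenergic receptor, was at 12.9 normalized reads in control, 71.0 after AD-MSC and 62.7 after UC-MSC, a difference of 2.46 [2.0, 2.92] and 2.28 [1.79, 2.77]. *Trpa1*, an irritant-sensing channel, and *Galr1*, a galanin receptor, were higher after UC-MSC by 1.21 [0.67, 1.76] and 1.29 [0.47, 2.10]. *Galr1*, with a control mean under 10 reads, passed the filter only through its higher UC-MSC mean. *Ffar2*, a receptor for short-chain fatty acids, was at 52.6, 65.6 and 47.8. Of 20 listed sensors, 7 were higher and 4 lower after AD-MSC (median 0.02, and -0.016 with equal totals), and 5 were higher and 8 lower after UC-MSC (median -0.10). *Adra2a* is expressed by several cell types, and the cells carrying it were not resolved in whole tissue.

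Receptors for gut hormones were mostly low. Of 19 listed, 6 were compared with control after AD-MSC, with 4 higher (median 0.11), and 8 after UC-MSC, with 7 higher (median 0.40). *Npy4r*, a receptor for pancreatic polypeptide that the table holds under its older symbol *Ppyr1*, was at 52.0, 32.8 and 78.3 normalized reads, 1.26 higher after UC-MSC than after AD-MSC. *Glp2r*, the receptor of a *Gcg* product, was nearly level at 63.9, 57.5 and 66.9.

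In contrast to *Tph1*, most other genes of serotonin handling were lower after UC-MSC. Of 19 listed genes, 12 were compared, with 5 higher and 7 lower after AD-MSC (median -0.18) and 2 higher and 10 lower after UC-MSC (median -0.36). *Htr4*, a serotonin receptor that promotes motility, was at 141 normalized reads in control, 108 after AD-MSC and 30.9 after UC-MSC, a difference of -2.19 [-2.56, -1.82] for the last. *Maob*, which degrades amines, was lower, with a difference of -0.79 after AD-MSC and -1.65 [-1.95, -1.34] after UC-MSC. The serotonin transporter *Slc6a4*, which takes the amine back into epithelial cells, was at 63.2, 49.7 and 36.6. *Slc18a1*, which loads serotonin into granules, was at 27.7, 19.6 and 25.4. The *Tph1* level, higher after UC-MSC, thus stood beside lower levels of the transporter and of *Ddc* in that group.

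Peptidases that inactivate hormones gave medians of -0.11 after AD-MSC and 0.11 after UC-MSC (-0.028 with equal totals) over 8 genes, with 3 and 5 higher. *Mme*, the peptidase neprilysin, was at 19.6, 4.69 and 6.06 normalized reads. The difference was -2.06 [-2.82, -1.31] after AD-MSC and -1.69 after UC-MSC, where by the group means 2 of the 3 UC-MSC libraries had reads. *Mme* passed the filter only through its control mean. *Dpp4*, which degrades glucagon-like peptides and peptide YY, was at 260, 228 and 198.

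**Figure D4:**
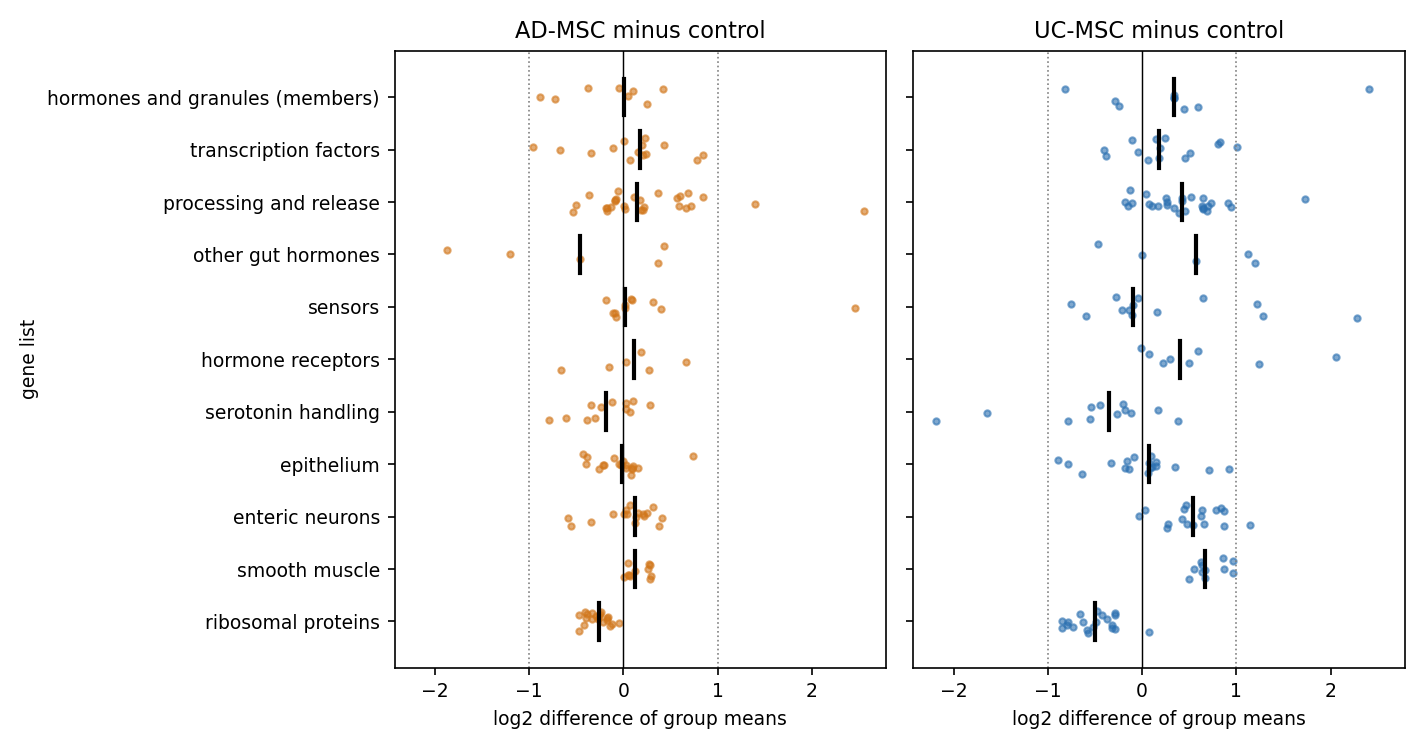
Log2 differences from control of the compared genes of 11 lists, with 1 point per gene, a black bar at each list's median and dotted lines at 2-fold. The hormone and granule genes spread around 0 after AD-MSC and have a median of 0.33 after UC-MSC, where neuronal and muscle markers are higher and ribosomal protein genes lower.

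The groups also differed in ways that touch these comparisons. UC-MSC libraries were the least deeply counted, with summed raw group means of 5034908 reads against 7295598 in control and 8222017 after AD-MSC. Scaling to equal totals would move all differences by -0.03, -0.13 and -0.10 in the order of the comparisons, which leaves *Chgb* at 0.46, *Chga* at 0.20 and *Gcg* at 0.20 after UC-MSC. Markers of smooth muscle were higher after UC-MSC in 11 of 11 genes (median 0.66) and after AD-MSC (median 0.12), and all 6 compared glial markers were higher in both (medians 0.53 after AD-MSC and 0.42 after UC-MSC), with *Gfap* at 32.4, 41.8 and 118 normalized reads. Epithelial markers had medians of -0.01 and 0.07 over 18 genes, goblet cell markers 0.10 and 0.11 over 11 (with equal totals, -0.064 and -0.027 for these lists after UC-MSC), and tuft cell markers -0.10 and 0.02 (-0.12 with equal totals). The tuft marker *Rgs13* was more than 2-fold lower after UC-MSC. However, of the 6 tuft markers compared there, 5 had a counting interval and 0 of these intervals lay below 0. Between the treated groups, *Cdx2* was lower and *Cldn4* and *Dbh* were higher after UC-MSC by more than 2-fold. Of the ribosomal protein genes, 20 of 20 were lower after AD-MSC (median -0.26) and 19 of 20 after UC-MSC (median -0.50). These levels do not measure RNA integrity. Samples with an RNA integrity number under 7 had been left out by the study. Of the 28 pancreatic acinar genes, 13 were at 0 in control, 15 after AD-MSC and 2 after UC-MSC, and *Ctrb1*, *Cel*, *Pnliprp2* and *Ctrl* were more than 2-fold higher after UC-MSC (median of 7 compared genes 2.69, 1.24 with a pseudocount of 10 and 0.41 at a minimum mean of 50, and -0.56 over 3 after AD-MSC). The median log2 level of these 7 genes was 2.38 in control and 5.89 after UC-MSC. Most of them therefore passed the filter only through the UC-MSC mean. Only 4 of the 7 had a counting interval, which lay above 0 for 3 and below 0 for 1. Of 13 islet endocrine genes 2 were compared, of which 1 was at least 2-fold higher after UC-MSC, and their summed level was 196, 282 and 338 normalized reads. *Ins1*, *Ins2* and *Iapp* were below a log2 level of 1 in every group. The part of these differences in the hormone results was not tested.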

How the data were processed

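Medial colon RNA of 9 mice, 3 per group, was sequenced as 50-base single-end reads from a stranded total RNA library kit and mapped to GRCm38/mm10; the submitters' processing notes name bcl2fastq 1.8.4 and DESeq. The aligner is not given in the sources used here, nor is the use of strand when reads were counted. Human reads from the injected cells were not separated in the values used. The deposited table of 38087 genes holds, per group, the authors' raw group mean and the authors' mean log2 normalized reads. In the latter each library is divided by its size factor and any value below 1 becomes 1. The table holds no single libraries, so the tests that single libraries would allow were not run. That the raw mean is a geometric mean over libraries with reads was worked out from the values and is not stated in the sources. The number of libraries with reads was likewise worked out from the group means.

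Differences are subtractions of the log2 means, for genes that averaged 10 or more normalized reads in both groups together, and 2-fold is the fold of the call. Size factors, recovered from genes with reads in a single library, were 0.721 to 1.46 in control, 0.893 to 1.51 after AD-MSC and 0.538 to 0.938 after UC-MSC. The counting interval is 1.96 times the smallest Poisson error of the raw means of 3 libraries per group, and is given only for genes with reads in every library compared. The precision follows the depth, with summed raw group means of 5034908 to 8222017 reads. The calculation was tested on simulated data. Reads per kb used exon lengths of the GENCODE annotation; 10 of 10 promoters matched RefSeq by symbol. Python 3.11.15, pandas 2.3.3 and numpy 2.4.6 were used.

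The members and the 17 other gene lists (288 genes with the members, all matched in the table) were chosen with earlier results of these data known. Named were all members, at most 4 genes per list and comparison that differed at least 2-fold, and up to 2 more per list next to a member in its pathway; *Epcam*, *Cerkl*, *Gip*, *Gast*, *Rxfp4*, *Hoxb13*, *Ins1*, *Ins2*, *Iapp* and any further pathway neighbours were named after their values were seen. Some genes that meet the rule are not reported here. Alternatives were a pseudocount of 10, equal totals, scaling to the epithelial median, the raw means, no filter and a minimum mean of 50.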

Additional observations from a re-analysis of the deposited data

How the results depend on the processing

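None of the 30 differences of the hormone and granule genes that exceeded its counting interval changed sign under a pseudocount of 10, equal totals, scaling to the epithelial median or the raw means. Without the filter on low values, 2 genes (*Cck* and *Nts*) were at least 2-fold higher after AD-MSC, against 0 with it; with a minimum mean of 50 reads, 0 were at least 2-fold higher after UC-MSC, since *Cck* was removed. *Nts* stood at 3.10 for AD-MSC minus control and -2.23 for UC-MSC minus AD-MSC by the raw means, which leave out libraries with no reads. Of 267 list medians under the alternatives, 19 had the opposite sign to the reported median, and for 12 of these the reported median lay within 0.1 of 0, among them epithelium with equal totals (-0.064 after UC-MSC and -0.034 for UC-MSC minus AD-MSC). The other 7 were those of other gut hormones after AD-MSC without the filter (0.077), islet genes without it (-0.18 after UC-MSC and -0.010 for UC-MSC minus AD-MSC), colon position at a minimum mean of 50 (-0.36 after UC-MSC and -0.25 for UC-MSC minus AD-MSC), and, with equal totals after UC-MSC, goblet cells (-0.027) and hormone inactivation (-0.028). The acinar median after AD-MSC was -0.23 without the filter.

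Leaving out each replicate in turn was not run, because the table gives group means. No paired analysis was possible because the columns carry no replicate numbers. Depth limits *Nts*, *Cck* and *Neurod1* most, and the spread between mice, which no value here measures, limits all of the differences.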
